A study of Mus musculus with 21 samples.

Results

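Proteasome subunit genes were followed in mouse small-intestinal organoids in which a mutant β-catenin was switched off, or its activity probed with CDK8/19 inhibitors. The members were all genes on the array whose name begins with Psm, a letter from a to g and a digit, each read by its brightest probe. There were 49 such names of 34844 gene names on the array, and 47 of them were among the 21372 genes tested. Psma8, the testis form of an α-ring subunit, and Psmb11, the thymus-specific catalytic subunit, were well above background on 0 of 21 arrays and were left out. Psmc3ip carries a matching name but encodes a recombination factor and no proteasome subunit; it was well above background on 15 of 21 arrays, on 1 of 4 with compound 6 and 2 of 4 after withdrawal, and its values rest on few readings there.

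The organoids carried a doxycycline-inducible (tet-O) transgene for an N-terminally truncated, myc-tagged β-catenin, which escapes degradation and keeps WNT signalling on, together with the M2-rtTA transactivator at ROSA26. Vehicle cultures kept on doxycycline (n = 7, letters A to G) were compared with cultures kept on doxycycline and given compound 2 (n = 3, letters A to C), compound 9 (n = 3, A to C) or compound 6 (n = 4, D to G) at 2 µM for 24 h, and with cultures from which doxycycline had been withdrawn for 24 h (n = 4, D to G). The compounds are analogues from a series of trisubstituted pyridines that inhibit CDK8 and CDK19, kinases of the Mediator complex. Each array held a sample labelled with Cy3 and Universal Mouse Reference RNA labelled with Cy5, and every value below is a log2 ratio of sample to reference, or a difference between such ratios. The arrays of letters A, B and C and those of letters D, E, F and G were scanned on different days and on different slides, so the 2 sets were compared only through the vehicle arrays each holds. No label says that the letters are separate cultures or animals, so the p-values speak only of the spread among these arrays, which may be technical, and with 3 or 4 arrays a group their number limits the precision.

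The proteasome degrades proteins tagged with ubiquitin. Its barrel-shaped 20S core is a stack of rings of α subunits (Psma) and β subunits (Psmb), of which Psmb5, Psmb6 and Psmb7 cut proteins; immune cells and interferon-treated cells replace these by Psmb8, Psmb9 and Psmb10, which favour peptides for MHC class I. The 19S cap unfolds substrates with its ATPases (Psmc) and recognises and strips ubiquitin with its other subunits (Psmd), while the Psme proteins are alternative caps. The proteins encoded by Psmg1, Psmg2, Psmg3 and Psmg4 are chaperones that help the α ring to assemble and are not part of the finished particle. When proteasome activity falls short, the transcription factor NRF1 (Nfe2l1) raises subunit genes together through antioxidant response elements.

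The array labelled vehicle F stood apart from vehicle D, E and G. Epithelial markers were present throughout: 14 or 15 of 16 were well above background on all arrays of each group. Olfm4, a stem cell marker, was so on no array of any group except vehicle, which alone spans letters A to G. Compound 9, with which 0 of 21372 genes passed, also lacked it, so this does not part the set of letters from the treatment. Axin2, a feedback target of WNT signalling, was 1.36 lower after withdrawal (SE 0.22, adjusted p = 0.00055 in limma), 1.08 lower with compound 6 and 0.97 lower with compound 2, and differed by -0.15 (SE 0.25, not passing) with compound 9. The mouse Ctnnb1 probe differed by at most 0.11 from vehicle in these comparisons, and whether it reads the human transgene is not stated. The array labelled vehicle F had an Axin2 value of 0.24, against 0.84, 1.15 and 0.99 in vehicle D, E and G. Across genes it correlated most closely with the withdrawal array of the same letter (r = 0.992, a description). Compound 6 F in turn correlated most closely with vehicle F (r = 0.978). Whether the letter or the label lies behind this was not tested. Counts of letters D to G are therefore given with and without vehicle F, as are the values of the genes described most fully. The fits without vehicle F keep withdrawal F and compound 6 F without the vehicle array of their letter. Those arrays had the lowest medians of their groups over the 31 core 20S and 19S genes, -0.62 and -0.54.

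The sequences just before the start sites of 4 members are shown because the results turn on these genes or on the motifs searched. They are the last 100 bases before the RefSeq transcription start, from the GRCm38.p6 assembly, read in the direction of the gene. Capitals mark the antioxidant response element core TGACNNNGC or the ETS-type site CCGGAAG, searched on both strands. Psmg1 is at chr16:95990961-95991060 (minus strand), Psmg3 at chr5:139826895-139826994 (minus), Psmg4 at chr13:34162864-34162963 (plus) and Psmb5 at chr14:54617996-54618095 (minus).
Psmg1: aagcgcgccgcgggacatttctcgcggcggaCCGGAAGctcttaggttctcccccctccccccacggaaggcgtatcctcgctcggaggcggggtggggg
Psmg3: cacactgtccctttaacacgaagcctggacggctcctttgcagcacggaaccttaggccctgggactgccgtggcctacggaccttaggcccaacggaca
Psmg4: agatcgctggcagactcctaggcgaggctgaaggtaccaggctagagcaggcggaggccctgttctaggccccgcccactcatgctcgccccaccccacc
Psmb5: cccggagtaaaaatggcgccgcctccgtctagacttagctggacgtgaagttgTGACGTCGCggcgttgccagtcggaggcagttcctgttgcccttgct

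In windows from 250 bases before to 50 after the start, which RefSeq gave for 41 of the 49 names, 6 of the 41 held the antioxidant response element core (14.6%), against 14.0% of 27025 genes. These were Psmb5, Psmb6, Psmc6, Psmd12, Psmd9 and Psme4. The interferon-stimulated response element was found in 5 of 41 (12.2%, against 3.99% of all genes), in Psmb3, Psmd4, Psmd9, Psme1 and Psmg4. CCAAT was found in 15 (36.6% against 41.1%). CCGGAAG, a site of ETS-family factors, was searched after the values and these sequences had been seen, so its count is a description and no independent result. It was held by 15 of 41 members (36.6%) against 9.93% of all genes. Among them were Psmg1 and, just after the start and so outside the bases shown, Psmg3. CACGTG, the E-box bound by MYC and also chosen late, was found in 4 of 41 (9.76% against 8.09%). A match is only a match of letters in this window. Psma8, Psmb1, Psmb2, Psmb7, Psmc3, Psmd3, Psmd7 and Psmg2 had no entry.

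Withdrawal of doxycycline was compared with vehicle to ask what changes when the mutant β-catenin is no longer induced. In it, 24 of the 47 names fell and 0 rose, or 23 of 46 without Psmc3ip, where 13.3% of all genes tested fell and 7.28% rose at an adjusted p below 0.05. The largest differences were in the 4 Psmg assembly chaperones, all of which fell, Psmg2 by the most and Psmg1 by the least. The ring and cap subunits fell less: 19 of the 31 core 20S and 19S genes passed, and their median difference was -0.29 on the log2 scale. The median of all 47 was -0.28, against -0.01 over all genes. Without vehicle F, 33 members fell and 0 rose (21.7% and 12.9% of all genes), and with the letter as a block 33 fell and 0 rose (23.8% and 15.4%). The count also moved down: 8, 7 and 10 fell without vehicle D, E and G, 9 and 12 without withdrawal F and G, and 9 in a fit to these groups alone, where 7.95% to 10.2% of all genes fell.

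**Figure D1:**
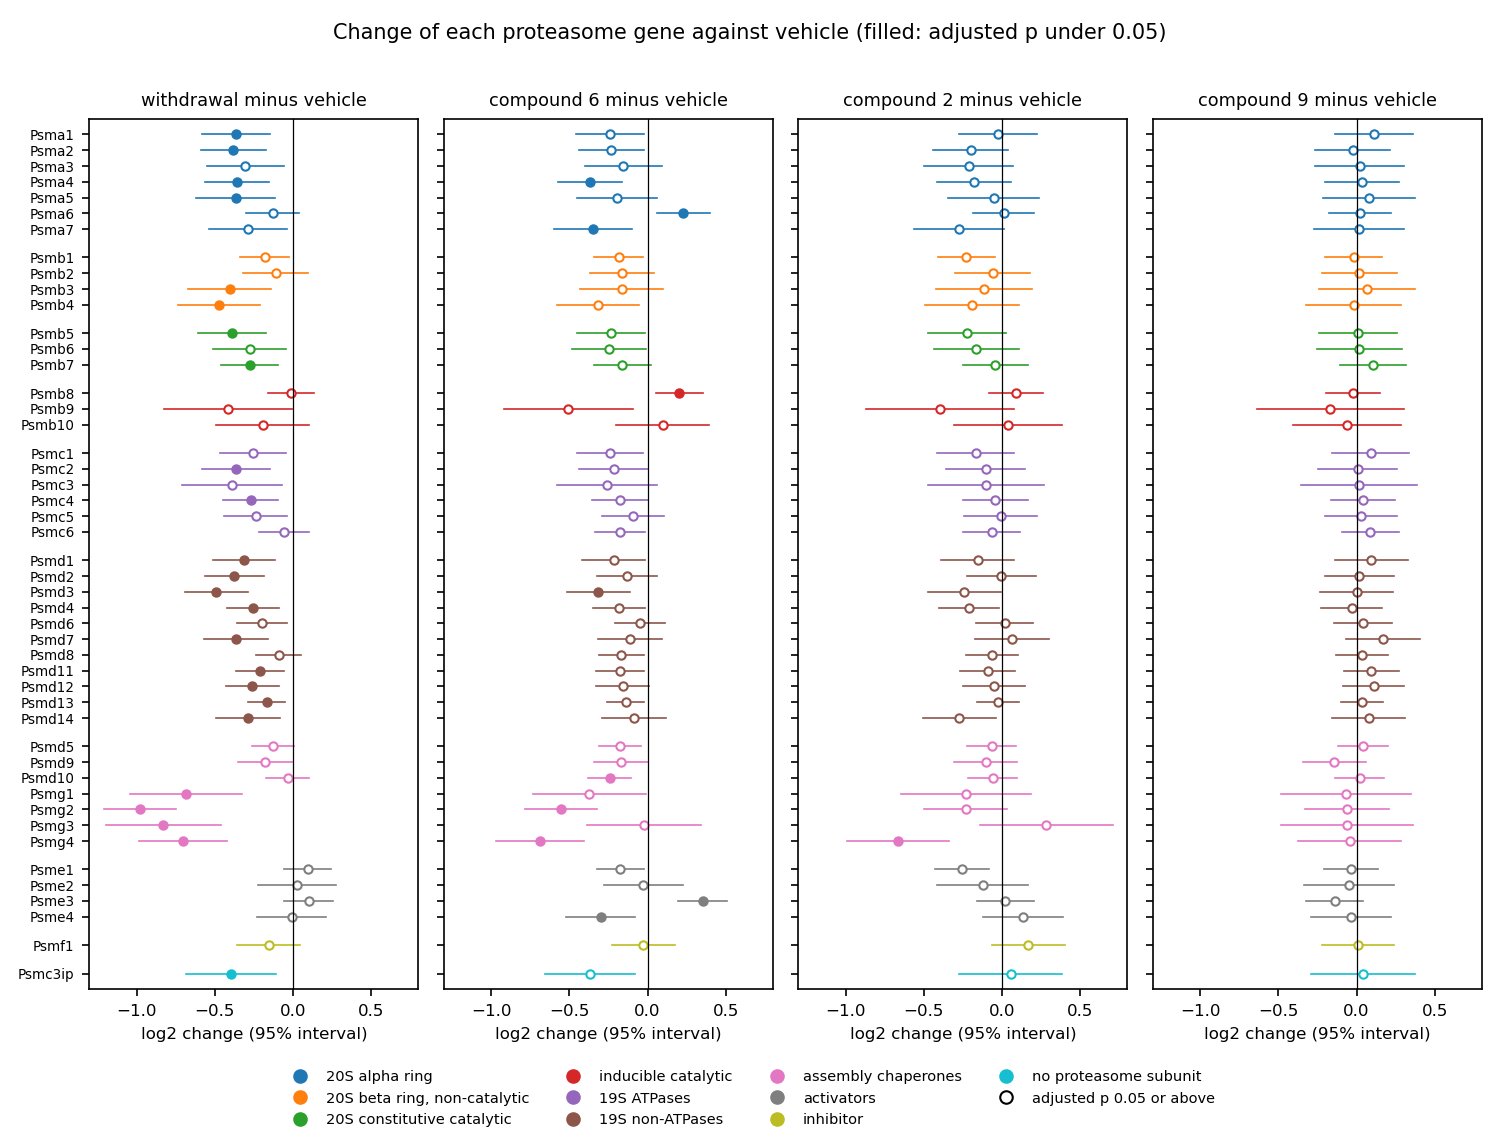
Difference of each of the 47 tested genes from vehicle (log2, points with 95% intervals from limma) in the 4 comparisons, grouped and coloured by role; filled points had an adjusted p below 0.05. In the withdrawal panel the 4 Psmg chaperones lie between -0.98 and -0.68 and the core genes between -0.49 and -0.06, while in the compound 9 panel every point lies between -0.17 and 0.17 and none is filled.

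Psmg2, which pairs with the Psmg1 protein to hold the α subunits in place, showed the largest difference. Its probe (chromosome 18) read -0.31, -0.30, -0.75 and -0.33 in vehicle D to G and -1.47, -1.36, -1.17 and -1.60 after withdrawal. All 4 withdrawal arrays lay below all 4 vehicle arrays, and vehicle F was the lowest of its group. The difference was -0.98 (SE 0.11, 95% interval -1.21 to -0.75, adjusted p = 3.8e-05), so that the level fell by 49.2% on the linear scale. Without vehicle F it was -1.09.

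Psmg3 encodes a subunit of the other chaperone pair, and its probe lies at chr5:140299626-140299685 in mm9, the build of the array files. It read -0.87, -0.96, -2.01 and -1.14 in vehicle D to G and -1.94, -1.93, -2.19 and -2.23 after withdrawal. Vehicle F lay within the withdrawal range, so the groups overlapped. The difference was -0.83 (SE 0.17, adjusted p = 0.0032), and -1.08 (SE 0.11, adjusted p = 5.1e-07) without vehicle F.

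Psmg4, the partner of Psmg3 (probe at chr13:34269918-34269977, mm9), read -0.96, -0.94, -1.68 and -1.03 in vehicle D to G. After withdrawal it read -1.75, -1.69, -2.05 and -1.93, and the groups did not overlap, although vehicle F and withdrawal E nearly touched. The difference was -0.70 (SE 0.13, adjusted p = 0.0018), and -0.88 without vehicle F. Groups that did not overlap in this direction were found for 4 members, against 8.96% of all genes. In 36 of 47 members each withdrawal array lay below the vehicle array of its letter, against 28.7% of all genes.

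Psmg1 (probe at chr16:96201564-96201623, mm9) read -0.12, -0.06, -1.002 and -0.22 in vehicle D to G. It read -0.95, -0.76, -1.32 and -1.11 after withdrawal, and vehicle F again lay within the withdrawal values. The difference was -0.68 (SE 0.17, adjusted p = 0.0091), and -0.90 without vehicle F. A dimmer second probe of the gene differed by -0.69. The remaining assembly chaperones, Psmd5, Psmd9 and Psmd10, which help the 19S base to form, differed by -0.13, -0.18 and -0.03 and did not pass, although Psmd9 did without vehicle F (adjusted p = 0.027).

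**Figure D2:**
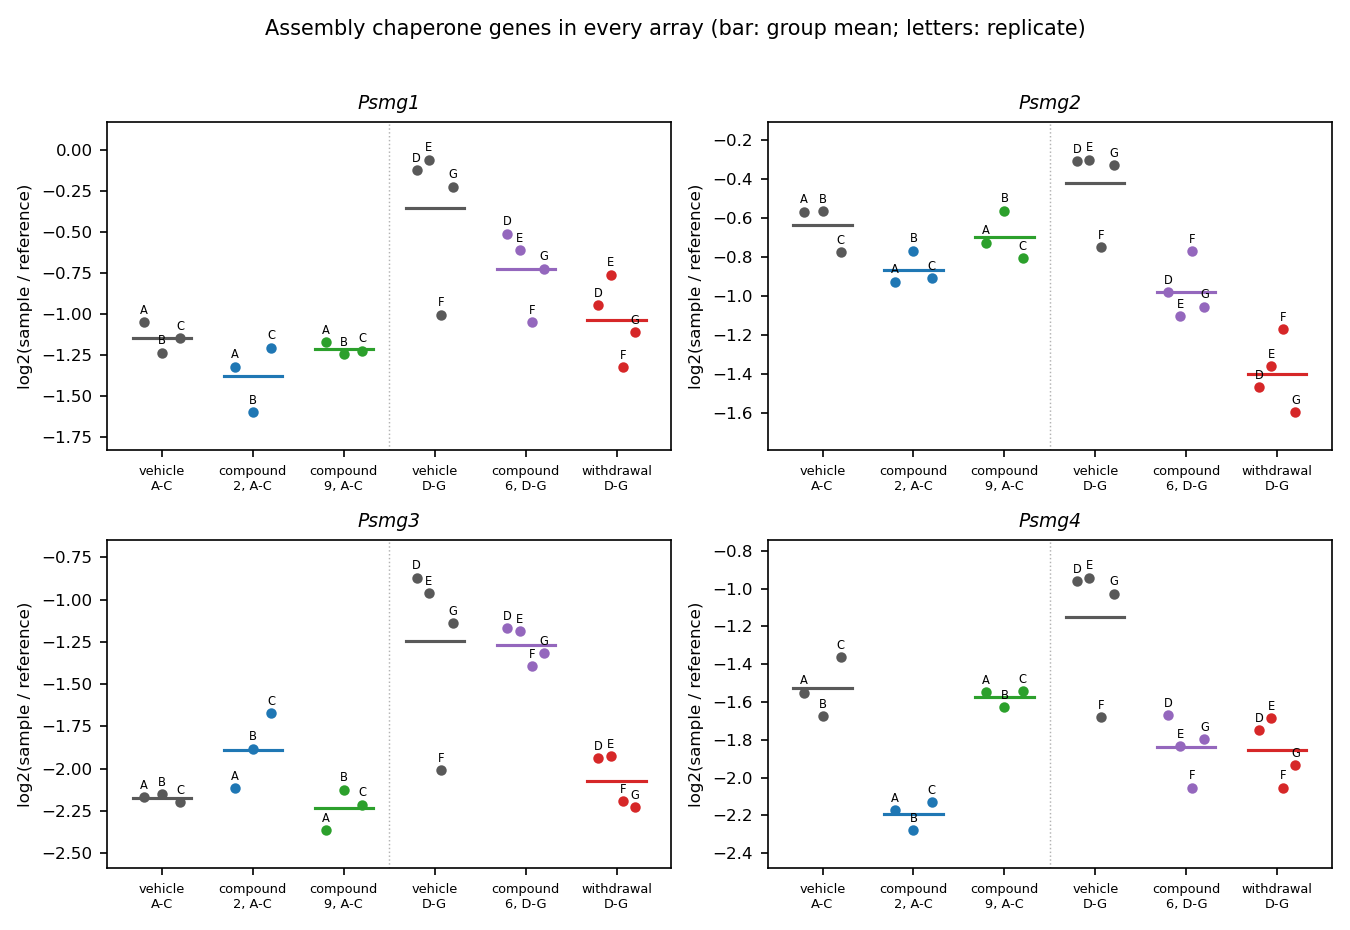
Log2 ratio of sample to reference of the 4 Psmg chaperone genes in each of the 21 arrays, by group, with the letter of each array and a bar at the group mean; the dotted line parts the 2 sets. Withdrawal arrays lie below vehicle D, E and G in all 4 panels, and vehicle F lies far below vehicle D, E and G. The vehicle level also differs between the sets, for Psmg3 -2.20 to -2.15 in A to C against -1.14 to -0.87 in D, E and G.

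Among the catalytic subunits of the constitutive core, Psmb5, the chymotrypsin-like subunit, read 0.17, 0.08, -0.43 and -0.04 in vehicle D to G and -0.37, -0.31, -0.59 and -0.50 after withdrawal. Only vehicle F overlapped the withdrawal values. The difference was -0.39 (SE 0.10, adjusted p = 0.012), or -0.52 without vehicle F, and its second probe gave -0.34. Psmb7, the trypsin-like subunit, read -0.46, -0.33, -0.71 and -0.43 in vehicle and -0.74, -0.65, -0.88 and -0.78 after withdrawal, a difference of -0.28 (SE 0.09, adjusted p = 0.029). Psmb6, the caspase-like subunit, read -0.03, -0.10, -0.59 and -0.24 in vehicle and -0.44, -0.37, -0.72 and -0.55 after withdrawal; its difference of -0.28 (SE 0.11) did not pass (adjusted p = 0.086), but did with the letter as a block (0.0011) and without vehicle F (0.0048). In all 3 genes each withdrawal array lay below the vehicle array of its letter.

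The inducible catalytic subunits gave no gene that passed after withdrawal. Psmb8 read -3.56, -3.66, -3.70 and -3.86 in vehicle D to G and -3.70, -3.67, -3.75 and -3.70 after withdrawal, a difference of -0.01 (95% interval -0.16 to 0.14). Psmb9 read -1.09, -1.12, -1.52 and -1.16 in vehicle and -1.61, -1.51, -1.70 and -1.73 after withdrawal, with an overlap through vehicle F alone. Its difference of -0.42 (SE 0.20) had an adjusted p of 0.14, which became 0.00050 with the letter as a block. Psmb10 read 1.10, 1.00, 0.60 and 1.05 in vehicle and 0.84, 0.88, 0.49 and 0.77 after withdrawal, lower in each of the 4 letters, a difference of -0.19 (adjusted p = 0.36, or 0.033 with the block).

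The other core subunits followed by role. In the α ring, 4 of 7 genes fell (Psma1, Psma2, Psma4 and Psma5), with a median of -0.36, and Psma6 had the smallest difference, -0.13. Of the non-catalytic β subunits, Psmb3 (-0.41) and Psmb4 (-0.47) fell, and Psmb1 and Psmb2 did not pass, although Psmb1 did without vehicle F (adjusted p = 0.020). Among the 19S ATPases, Psmc2 (-0.37) and Psmc4 (-0.27) fell, and the other 4 of 6 did not pass; without vehicle F, Psmc1, Psmc3 and Psmc5 did. Of the 11 non-ATPase subunits 9 fell; the largest difference was in Psmd3, a scaffold subunit of the lid, at -0.49 (SE 0.10, adjusted p = 0.0021). Psmd3 read 0.09, 0.11, -0.35 and -0.04 in vehicle D to G and -0.48, -0.41, -0.63 and -0.63 after withdrawal, with no overlap. Psmd14, the deubiquitinase of the lid, fell by 0.29. With the slide as a block, Psmd14 (adjusted p = 0.062), Psmd12 (0.062) and Psmd13 (0.11) did not pass.

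All 31 core genes had a difference below 0, against 51.9% of all genes. This count was 31 under all processings tried except quantile normalization (30), the Cy3 channel alone (27) and a fit without the set term (28). The core genes are bright, and among the 5638 genes as bright as they are, a comparison chosen after the values were seen, 55.2% were below 0, 17.5% fell and the median was -0.04. By letter the median of the 31 was -0.33 in D, -0.30 in E, -0.14 in F and -0.37 in G. The number that fell depended more on scale than the sign did: 6 of 31 fell with Agilent's own log ratios and 2 of 31 with the Cy3 channel alone, where the core median was -0.13 and that of all genes 0.09. The shares of all genes that fell in these fits were 10.3% and 8.57%.

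**Figure D3:**
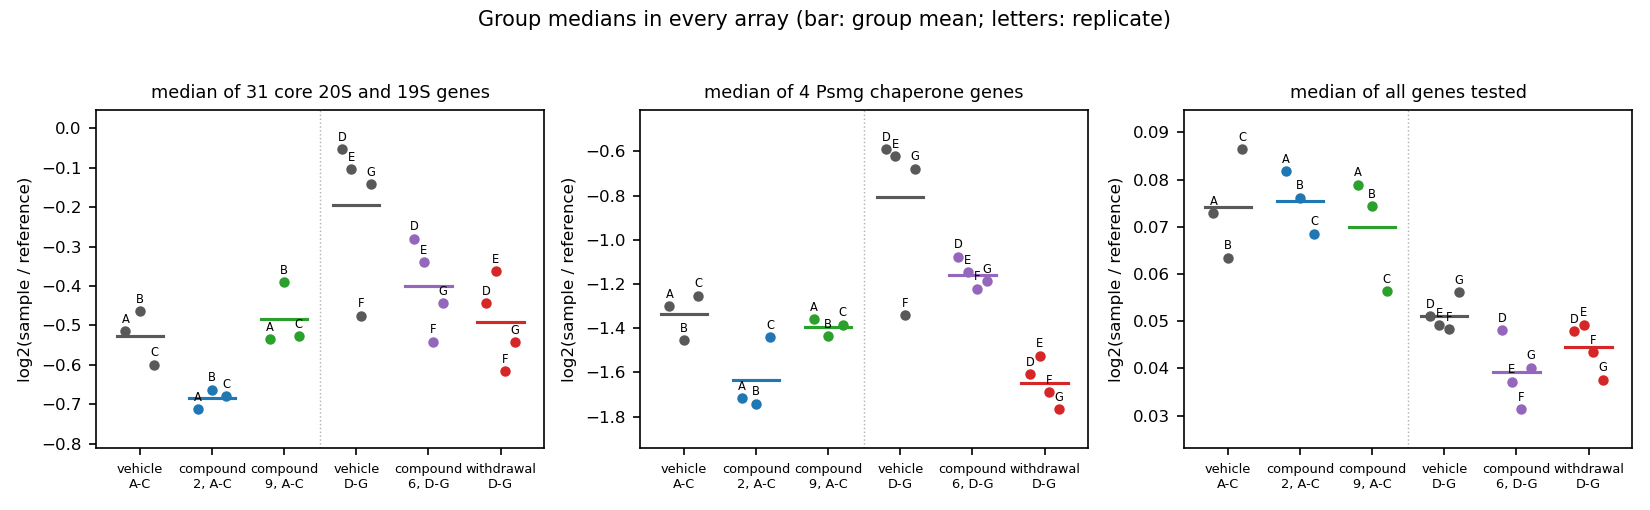
Median log2 ratio in each of the 21 arrays over the 31 core genes, the 4 Psmg genes and all genes tested, by group with letters and a bar at the group mean; the vertical scales differ. In both left panels the withdrawal arrays lie below vehicle D, E and G, and vehicle F lies at -0.48 for the core genes and -1.34 for the Psmg genes. Vehicle A, B and C, of the other set, lie near vehicle F, at -0.51, -0.46 and -0.60 for the core genes and -1.30, -1.45 and -1.25 for the Psmg genes. The core medians after withdrawal, -0.62 to -0.36, span that level, and the Psmg medians, -1.77 to -1.52, lie below it. The all-gene medians span only 0.03 to 0.09.

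The alternative caps and the inhibitor did not pass. Psme1 and Psme2, the subunits of the interferon-inducible activator, differed by 0.09 and 0.03, Psme3, the nuclear activator, by 0.10 and Psme4 by -0.01. Psmf1, which encodes the inhibitor PI31, read 0.39, 0.47, 0.53 and 0.54 in vehicle D to G and 0.23, 0.17, 0.45 and 0.45 after withdrawal. It was lower in each of 4 letters, but its difference of -0.16 (95% interval -0.36 to 0.04) did not pass (adjusted p = 0.26). Psmc3ip differed by -0.40 (adjusted p = 0.046).

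Of 30 tested genes linked to the proteasome under other names, 5 fell and 1 rose after withdrawal, with a median of -0.11, shares near the 13.3% and 7.28% of all genes. Those that fell were Usp14 (-0.48), a ubiquitin hydrolase of the cap; Ipo9 (-0.43), an importin that carries proteasomes into the nucleus; Shfm1 (-0.41), the small 19S subunit now named Sem1; Txnl1 (-0.27), a cap-bound thioredoxin; and Fbxo7 (-0.17), which binds PI31. Zfand5, a proteasome-stimulating zinc finger protein, rose by 0.36.

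Compound 6 was compared with the same vehicle arrays D to G, to ask what inhibition of CDK8/19 does while the mutant β-catenin stays induced. With it 7 of 47 members fell and 3 rose, against 13.4% and 11.4% of all genes. Psmg4 and Psmg2 fell most, and Psme3 rose. The median of the 47 was -0.18, against -0.04 over all genes, and 30 of 31 core genes lay below 0 (20 without the set term), where 56.3% of all genes did. Groups did not overlap for 5 members that were lower and 1 that was higher, against 10.9% and 9% of all genes. With the letter as a block 31 fell and 3 rose (23.8% and 17.4% of all genes), and without vehicle F 34 fell and 1 rose (20.2% and 14.1%). That last fit keeps compound 6 F without the vehicle array of its letter. By letter the core median was -0.23 in D, -0.25 in E, -0.05 in F and -0.27 in G. In F, 23 of the 31 core genes were lower. The total of 10 fell to 6, 5 and 6 without vehicle D, E and G, to 6 without compound 6 F and to 5 in a fit to these groups alone. In these fits 8.31% to 9.26% of all genes rose and 8.77% to 9.71% fell. Within slides the median of the members was -0.002 on slide 3, which holds vehicle F, -0.28 on slide 4 and -0.38 on slide 5. Among the 5638 genes as bright as the core genes 62.1% lay below 0, 18.9% fell and the median was -0.08. Since both comparisons use the same vehicle arrays, the values of compound 6 and of withdrawal are given side by side, and a shared direction is no independent result.

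Psmg4 read -1.67, -1.83, -2.05 and -1.80 with compound 6, against the vehicle values given above. Compound 6 arrays E, F and G lay below all vehicle arrays, and D lay just above vehicle F. The difference was -0.69 (SE 0.13, adjusted p = 0.0012), beside -0.70 after withdrawal, and -0.86 without vehicle F. Psmg2 read -0.98, -1.11, -0.77 and -1.05, all below vehicle, a difference of -0.56 (SE 0.11, adjusted p = 0.0013) beside -0.98 after withdrawal. Psmg3 read -1.17, -1.19, -1.39 and -1.32 and differed by -0.02 (95% interval -0.39 to 0.34), or by -0.28 (adjusted p = 0.0501) without vehicle F, beside -0.83 after withdrawal. Psmg1 read -0.51, -0.61, -1.05 and -0.72, below the vehicle array of its letter in all 4; its difference of -0.37 (adjusted p = 0.12) passed with the block (0.0032) and without vehicle F (-0.59, adjusted p = 0.0019).

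The direct comparison of compound 6 with withdrawal does not use the vehicle arrays of D to G beyond the shared fit. In it 5 members were higher and 2 lower with compound 6, against 7.31% and 7.73% of all genes. Groups did not overlap for 6 members that were higher and 1 that was lower, against 9.95% and 11% of all genes. Psmg3 was 0.81 higher (SE 0.17, adjusted p = 0.0041) and Psmg2 0.42 higher (SE 0.11, adjusted p = 0.014), each with all 4 compound 6 arrays above all 4 withdrawal arrays. Psmg4 differed by 0.02 (95% interval -0.26 to 0.30) and Psmg1 by 0.31 (adjusted p = 0.24, or 0.012 with the block). Psma6, Psme3 and Psmb8 were also higher and Psme1 and Psmd10 lower. With the letter as a block 12 were higher and 3 lower (19.4% and 14.7% of all genes), and without vehicle F, which enters only through the estimated spread, 7 were higher and 2 lower (10.6% and 9.21%). Psmd10 did not pass with the slide as a block (adjusted p = 0.088).

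Psma4, an α-ring subunit, read 0.73, 0.83, 0.36 and 0.71 in vehicle D to G, 0.41, 0.32, 0.13 and 0.29 with compound 6 and 0.33, 0.38, 0.11 and 0.38 after withdrawal. Only vehicle F overlapped compound 6. The difference with compound 6 was -0.37 (SE 0.10, adjusted p = 0.010), and its second probe gave -0.32. Psma7 (-0.35), Psmd3 (-0.32), Psme4 (-0.30) and Psmd10 (-0.24), the assembly chaperone gankyrin, also fell. The second probe of Psmd10 gave only -0.10 (SE 0.06) and that of Psme4 -0.18 (SE 0.09). With the slide as a block Psma7 did not pass (adjusted p = 0.060), nor did Psma6 (0.062), Psmb8 (0.063) and Psme4 (0.052). Psme4, whose protein caps proteasomes at chromatin, lost its call under Agilent's log ratios, the Cy3 channel alone and the deposited series matrix among others, with values over all processings from -0.35 to 0.10.

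Psme3 rose with compound 6. It read -0.22, -0.27, -0.17 and -0.42 with the compound, against -0.59, -0.70, -0.43 and -0.77 in vehicle D to G and -0.61, -0.57, -0.47 and -0.44 after withdrawal. All 4 compound 6 arrays lay above all vehicle and withdrawal arrays. The difference from vehicle was 0.35 (SE 0.08, adjusted p = 0.0022), 0.42 without vehicle F, and 0.25 (adjusted p = 0.028) from withdrawal; with the Cy3 channel alone the difference from vehicle no longer passed (adjusted p = 0.072). Psma6 was the only core subunit gene to rise, by 0.23 (adjusted p = 0.045), from -0.40 to -0.09 in vehicle and from -0.21 to 0.11 with the compound; without vehicle F it did not pass (0.17, adjusted p = 0.11).

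Among the catalytic subunits only Psmb8 passed with compound 6. Psmb5 read -0.16, -0.21, -0.37 and -0.41 with compound 6, Psmb6 -0.31, -0.34, -0.71 and -0.58, and Psmb7 -0.59, -0.68, -0.84 and -0.45. Their differences from vehicle, -0.24, -0.24 and -0.16, did not pass; without vehicle F all 3 fell (-0.36, -0.36 and -0.24). Psmb8 read -3.67, -3.36, -3.54 and -3.40, overlapping vehicle, and its difference of 0.20 (SE 0.07) had an adjusted p of 0.046 that passed in 6 of 14 other processings and in 2 of 8 fits that left out 1 array (0.057 without vehicle F). Psmb9 read -1.60, -1.77, -2.02 and -1.51, a difference of -0.51 (adjusted p = 0.066, or 0.00011 with the letter as a block, 0.031 with the slide as a block and 0.029 without vehicle F). Psmb10 read 1.15, 1.09, 0.88 and 1.03, a difference of 0.10 (adjusted p = 0.66). Psmf1 read 0.48, 0.19, 0.44 and 0.72 with the compound, a difference of -0.03.

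**Figure D4:**
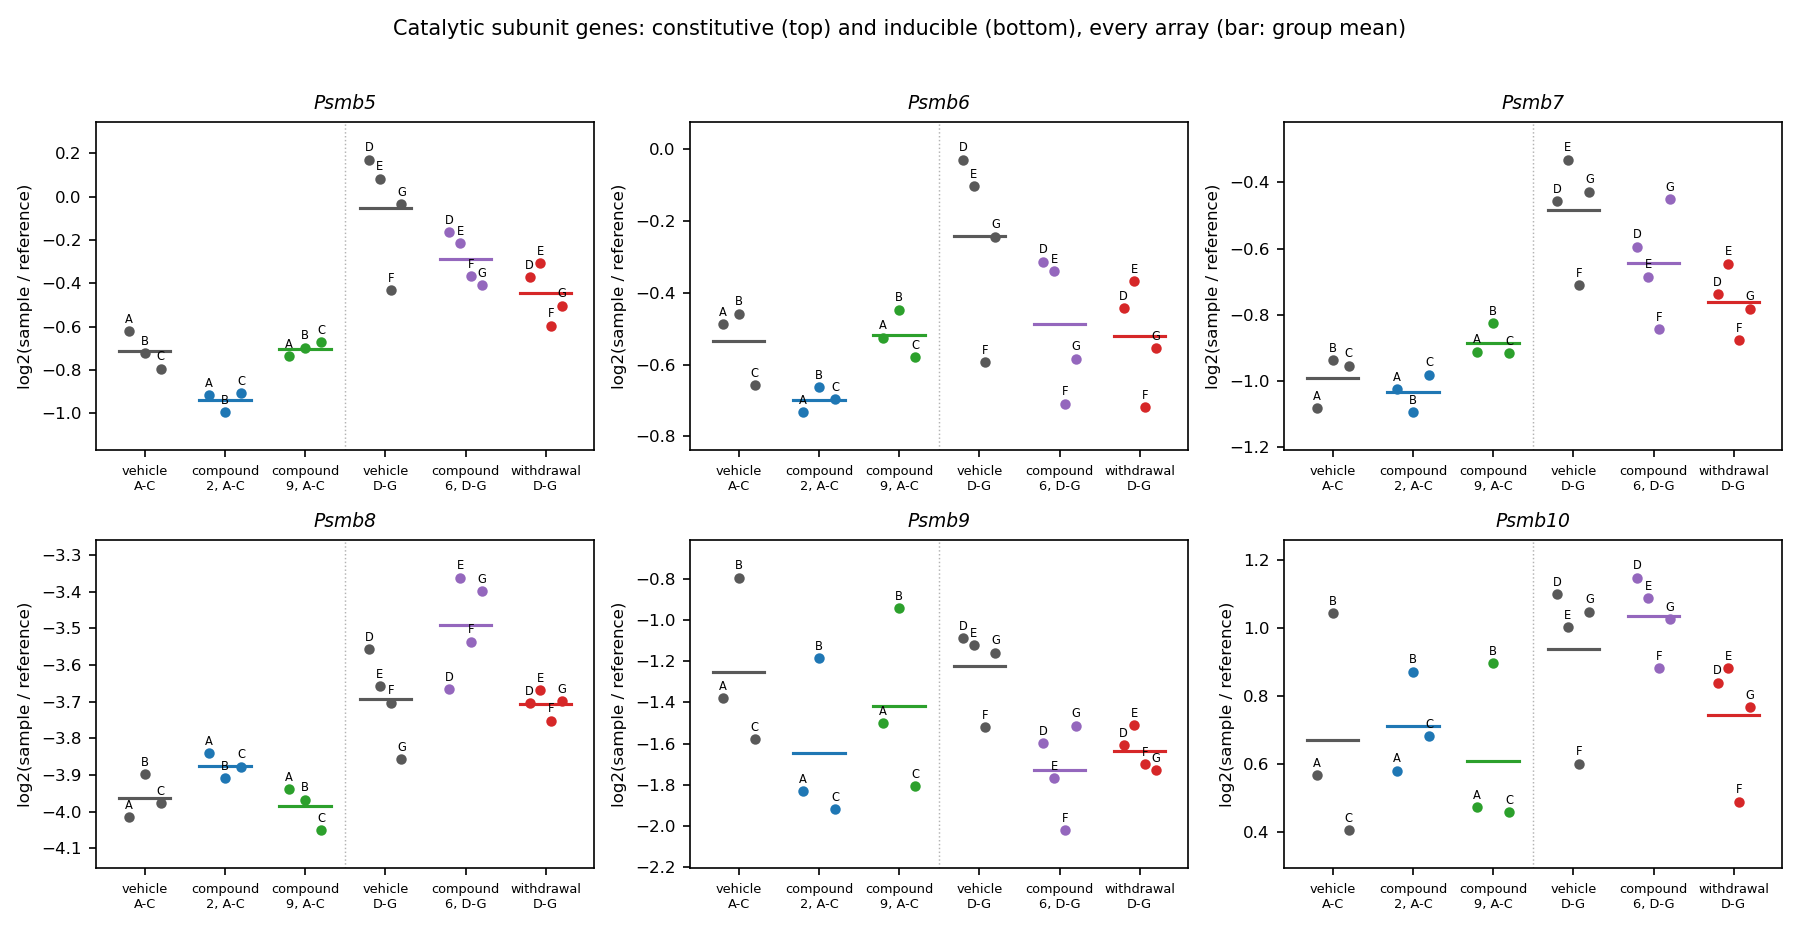
Log2 ratio of sample to reference of the 3 constitutive (top) and 3 inducible (bottom) catalytic subunit genes in each of the 21 arrays, by group with letters and a bar at the group mean; the dotted line parts the 2 sets and the vertical scales differ. Withdrawal arrays lie below vehicle D, E and G for Psmb5, Psmb6, Psmb7, Psmb9 and Psmb10, whereas Psmb8 differs by -0.01 on average; among letters A, B and C, Psmb9 and Psmb10 are highest in B in each group.

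Psmb8 is also made by leukocytes, and genes listed as leukocyte markers moved with compound 6. No sample label says that these organoid cultures held leukocytes. Of 13 such markers 9 rose and 0 fell, where 11.4% of all genes rose and 13.4% fell. The median of the 13 was 0.22, and all 13 were well above background in each group. The sum of their Cy3 signals, each relative to its array's 75th percentile, was 75.6 to 116 with compound 6 and 71.8 to 93.6 after withdrawal. It was 39.9 to 81.6 in vehicle, a range over both sets of letters. In letters A to C it was 56.3 to 59.3 with compound 2 and 40.6 to 55.6 with compound 9. The vehicle range therefore does not part the set from the treatment. With compound 6 the sum of the epithelial markers on the same scale was 3843 to 4672. Whether leukocytes were present, and any part of them in the Psmb8 result, was not tested. In bulk RNA more cells of a type and more RNA per cell cannot be told apart. Of 19 genes of class I antigen processing and interferon signalling, Irf1 rose (0.58), Tap2 fell (-0.37) and 17 did not pass. The shares of all genes are again 11.4% and 13.4%.

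Of the 30 genes linked to the proteasome under other names, 3 rose and 4 fell with compound 6, shares near the 11.4% and 13.4% of all genes. Zfand5 rose by 0.78 (SE 0.11, adjusted p = 7.1e-05), with all compound 6 arrays above vehicle, and Nfe2l2, which encodes NRF2, by 0.52 and Nploc4, a cofactor of the segregase VCP, by 0.26. Ipo9 (-0.47), Ubqln1 (-0.41), a shuttle for ubiquitinated proteins, Fbxo7 (-0.28) and Txnl1 (-0.24) fell. Of 14 NRF2 target genes 13 rose with compound 6 (median 1.05), 9 with compound 2 (0.54) and 8 after withdrawal (0.35), and 0 fell in these 3 comparisons. In the same order 11.4%, 3.32% and 7.28% of all genes rose and 13.4%, 1.99% and 13.3% fell.

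Compounds 2 and 9 were compared with vehicle A to C. With compound 2, 1 of 47 members fell and 0 rose (1.99% and 3.32% of all genes), and with the letter as a block 7 fell and 0 rose (7.94% and 9.44%). The gene that fell was Psmg4, which read -1.55, -1.67 and -1.36 in vehicle A to C, -2.17, -2.28 and -2.13 with compound 2 and -1.55, -1.63 and -1.54 with compound 9. All 3 compound 2 arrays lay below the other 6, and compound 9 lay among vehicle. The difference with compound 2 was -0.67 (SE 0.16, adjusted p = 0.016), beside -0.69 with compound 6 and -0.70 after withdrawal in the other set. It kept its size but not its call without compound 2 A, compound 2 B or vehicle C (adjusted p = 0.054, 0.057 and 0.075) and in a fit to these groups alone (0.095).

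The other Psmg genes did not pass with compound 2. Psmg2 read -0.57, -0.57 and -0.77 in vehicle A to C and -0.93, -0.77 and -0.91 with compound 2, a difference of -0.23. Psmg1 read -1.05, -1.23 and -1.15 in vehicle and -1.32, -1.60 and -1.20 with compound 2, also -0.23. Psmg3 read -2.17, -2.15 and -2.20 in vehicle and -2.12, -1.88 and -1.67 with compound 2, a difference of 0.28 (95% interval -0.14 to 0.71). Its groups did not overlap, as was so in this direction for 14% of all genes.

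The core genes lay slightly lower with compound 2, with a median of -0.10 and 28 of 31 below 0 (49.4% of all genes); 0 of 31 passed and 4 did with the block. In 10 of the 31 all compound 2 arrays lay below all vehicle arrays, against 12% of all genes. Psmb5 read -0.62, -0.72 and -0.79 in vehicle A to C and -0.91, -0.996 and -0.91 with compound 2, a difference of -0.23 (adjusted p = 0.33). Psmb6 read -0.49, -0.46 and -0.66 in vehicle and -0.73, -0.66 and -0.70 with compound 2. Psmb7 read -1.08, -0.94 and -0.95 in vehicle and -1.02, -1.09 and -0.98 with compound 2, and showed no separation. Psma4 read -0.11, -0.06 and -0.25 in vehicle and -0.42, -0.30 and -0.24 with compound 2, and Psme3 -0.67, -0.66 and -0.59 and then -0.59, -0.60 and -0.66.

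The inducible subunits and the inhibitor did not pass either. Psmb8 read -4.01, -3.90 and -3.98 in vehicle A to C and -3.84, -3.91 and -3.88 with compound 2. Psmb9 read -1.38, -0.79 and -1.58 in vehicle and -1.83, -1.18 and -1.92 with compound 2, lower in each letter, a difference of -0.40 (adjusted p = 0.39, or 0.0058 with the block). The letters differed more than the groups did. Psmb10 read 0.57, 1.04 and 0.40 in vehicle and 0.58, 0.87 and 0.68 with compound 2. Psmf1 read 0.46, 0.54 and 0.55 in vehicle and 0.70, 0.69 and 0.67 with compound 2, a difference of 0.17. Its groups did not overlap, as was so in this direction for 14% of all genes. Among the linked genes Nfe2l2 rose by 0.73 (adjusted p = 0.0025) and Zfand5 by 0.47 (adjusted p = 0.037).

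With compound 9 no member passed, and 0 of 21372 genes did in limma; 0 members and 252 genes (1.18%) had an unadjusted p below 0.05. With the letter as a block 1 gene passed (0.00468%), which was no member. The differences of the 47 from vehicle lay between -0.17 and 0.17, with a median of 0.02. Psmg1 read -1.17, -1.24 and -1.22 with compound 9, Psmg2 -0.73, -0.56 and -0.81 and Psmg3 -2.37, -2.12 and -2.21. Their differences were -0.07, -0.06 and -0.06, with 95% intervals from -0.48 to 0.35, -0.33 to 0.20 and -0.48 to 0.36.

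The constitutive subunits with compound 9 also lay close to vehicle. Psmb5 read -0.74, -0.70 and -0.67, Psmb6 -0.53, -0.45 and -0.58, and Psmb7 -0.91, -0.83 and -0.92. The difference for Psmb5 was 0.01 (95% interval -0.24 to 0.26). Psmb8 read -3.94, -3.97 and -4.05, Psmb9 -1.50, -0.94 and -1.81, and Psmb10 0.47, 0.90 and 0.46. In each of these 3 genes the values overlapped vehicle. Psmf1 read 0.53, 0.68 and 0.38, Psma4 -0.12, 0.03 and -0.23, and Psme3 -0.67, -0.82 and -0.85.

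Compounds 2 and 9, at the same dose and time and on the same slides, were compared directly. Of 47 members 1 was higher with compound 9 and 0 lower (1.46% and 3.34% of all genes), and 8 were higher and 0 lower with the block (6.1% and 9.8%). Psmg4 was 0.62 higher (SE 0.16, 95% interval 0.30 to 0.95, adjusted p = 0.025), and 0 of 6 fits that left out 1 of these arrays kept the call. All 31 core genes lay above 0, with a median of 0.16, and in 19 of them all compound 9 arrays lay above all compound 2 arrays, against 11.2% of all genes. No core gene passed. Among the 5638 genes as bright as the core genes 49.4% lay below 0 and the median was 0.004. Psmd3 was 0.24 higher (adjusted p = 0.27, or 0.021 with the block).

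Compounds 6 and 2 lie in different sets and can be compared only through their own vehicle arrays. At the same dose and time 0 of 47 members differed, where 0.346% of all genes were higher and 0.22% lower with compound 6. An unadjusted p below 0.05 in limma was found for 2 of 47 members, against 13.9% of all genes. Without vehicle F, Psme3 was higher and Psmg3 and Psmc3ip lower with compound 6, where 3.02% of all genes were higher and 4.43% lower. These 2 pairs of compounds were compared, with p-values adjusted over all genes within each.

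**Figure D5:**
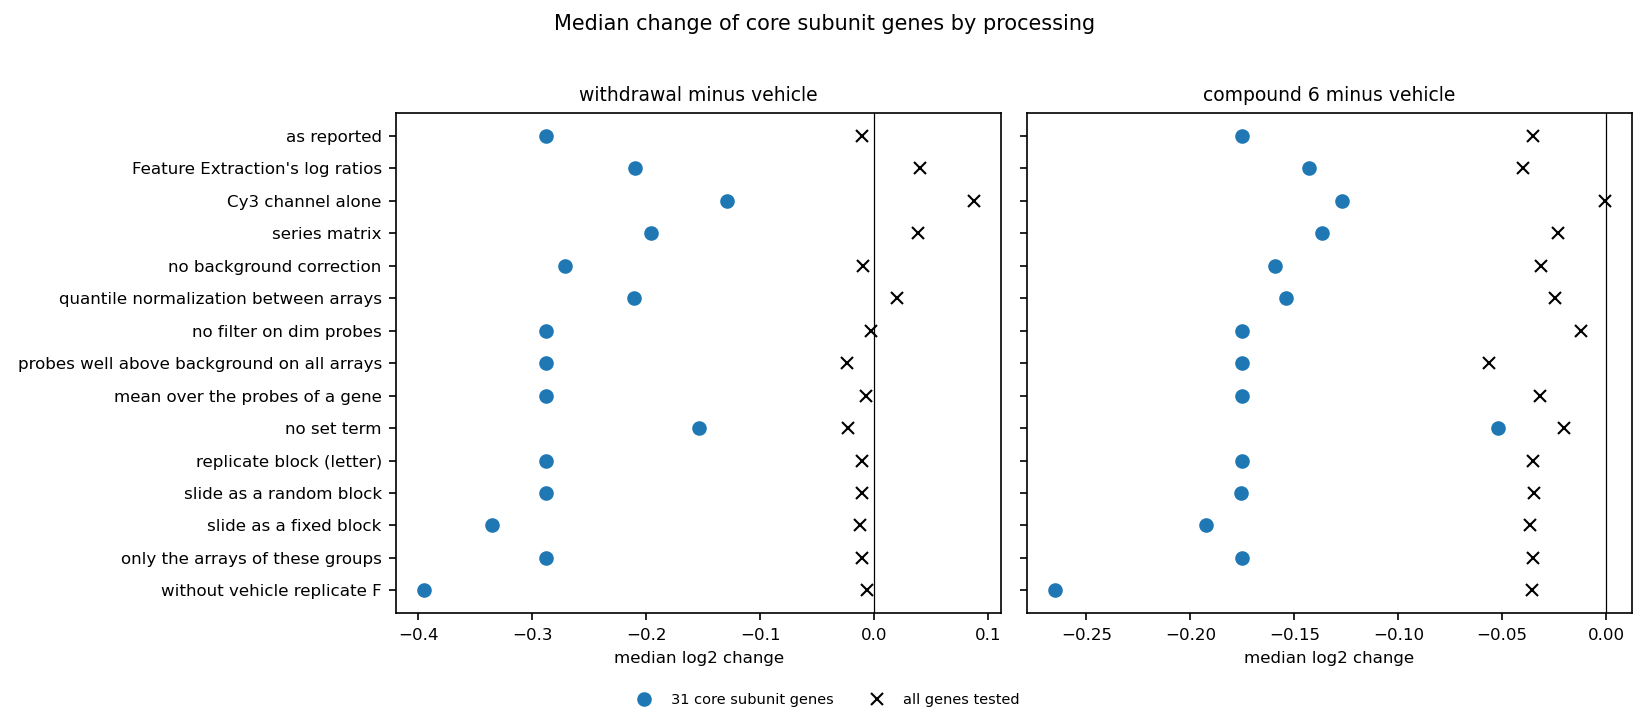
Median log2 difference from vehicle of the 31 core genes (circles) and of all genes tested (crosses) after withdrawal and with compound 6, under the processing reported and 14 others. The circles lie below the crosses under each of them; after withdrawal the core median ranges from -0.39 without vehicle F to -0.13 with the Cy3 channel alone.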

How the data were processed

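The 21 two-colour Agilent arrays were read from the deposited Feature Extraction 10.7.3.1 files (probe positions in mm9, per the file headers), whose mean signals and median backgrounds are intensities on a linear scale. The authors' deposited series matrix holds log2 ratios and the files' LogRatio column log10 ratios, both used only as alternatives. Intensities were corrected with limma 3.58.1 (normexp, offset 50), normalized by loess within arrays with control spots at weight 0, and expressed as log2 of Cy3 over Cy5. Dyes were not swapped, so a dye effect of a probe stays in its ratio but cancels between groups. Probes well above background in Cy3 on 3 or more arrays were kept, the brightest of each gene was used, and groups were compared over 21372 genes with group and set terms, moderated statistics and Benjamini-Hochberg adjustment (threshold 0.05). The code was tested on simulated data. No spot was saturated.

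Same-letter arrays deviated together (21 pairs, r from 0.209 to 0.749, median 0.530; median -0.180 between other letters), so the letter was taken to pair the arrays and a fit with it as a replicate block is given where it changes a result. The scan day cannot be told apart from the set. Within slides the consensus correlation was 0.0047. Alternatives were other background and scale choices, filters, probe rules, blocks, and leaving out each array. Genes given values in every array were Psmb5 to Psmb10, Psmf1 and, in each comparison with vehicle, the 4 passing members of largest change with 1 sign in every letter. The members, gene lists and rules were chosen with earlier results of these data known. Promoters are RefSeq's for GRCm38.p6, matched by symbol. A further motif searched is not reported here. R 4.3.3 was used.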

Additional observations from a re-analysis of the deposited data

Results flagged for a closer look

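Several values of the array labelled vehicle F lay far from vehicle D, E and G. In it Psmg2 read -0.75, where the nearest of the others read -0.33, Psmg4 read -1.68 (nearest -1.03) and Psmb9 read -1.52 (nearest -1.16). The median of the 4 Psmg genes was -1.34 (nearest -0.68). In each the gap exceeded Dixon's critical ratio for 4 samples; 48 sets of values were examined and 4 passed, and chance alone passes about 1 in 20.

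Differences between conditions passed the test of the difference itself for 8 pairs of gene and comparison. Psmg4 was 0.62 higher with compound 9 than with compound 2. Compared with withdrawal, compound 6 had higher Psmg3 (0.81), Psmg2 (0.42), Psma6 (0.36), Psme3 (0.25) and Psmb8 (0.21), and lower Psme1 (-0.27) and Psmd10 (-0.21). Psme1 differed from vehicle by 0.09 after withdrawal and by -0.17 with compound 6, neither of which passed.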

How the results depend on the processing

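After withdrawal 24 members passed. Percentages in brackets are the shares of all genes higher and lower in that fit. The count was 13 with Agilent's log ratios (2 higher, 11 lower) (9.12% and 10.3%). It was 9 with the Cy3 channel alone (2 higher, 7 lower) (11.8% and 8.57%) and 9 in a fit to these groups alone (5.12% and 9.68%). Without the set term, which leaves the difference between the sets of vehicle arrays in the comparison, it was 3 (4.56% and 5.3%). With the replicate block by letter it was 33 (15.4% and 23.8%). Leaving out 1 array at a time gave 7 to 33: 33 without vehicle F, or letter F, and 8, 7 and 10 without vehicle D, E and G, 9 and 12 without withdrawal F and G. With compound 6, 10 members passed. The count was 6 with the Cy3 channel alone (11.1% and 9.63%) and 6 without the filter on dim probes (6.62% and 7.47%). It was 5 in a fit to these groups alone (8.42% and 8.77%) and 34 with the letter as a block (17.4% and 23.8%). Leaving out 1 array gave 5 to 35, and leaving out letter F gave 26 (12.7% and 17.7%). With compound 2 it was 1. It was 3 with the Cy3 channel alone (2.2% and 1.95%), 4 with Agilent's log ratios (1.78% and 1.86%) and 12 without the set term (9.74% and 7.22%). With only these groups it was 0 (1.56% and 0.655%), and with quantile normalization 6 (2.83% and 2.71%). It was 7 with the block (9.44% and 7.94%) and 3 with the series matrix (2.12% and 1.95%). Leaving out arrays gave 0 to 1. Between compounds 9 and 2 it was 1. It was 3 with the Cy3 channel (1.56% and 1.83%), 4 with Agilent's log ratios (1.54% and 1.81%) and 0 without the set term (0.276% and 0.781%). With quantile normalization it was 6 (2.1% and 2.55%), with the block 8 (6.1% and 9.8%) and with the series matrix 5 (1.44% and 2.15%). It was 0 on leaving out any of its own arrays and 3 without letter F (3.6% and 6.11%). Between compound 6 and withdrawal it was 7, and 2 without the set term (2.42% and 2.89%) and 15 with the block (19.4% and 14.7%). On leaving out arrays it was 3 (without withdrawal E, 5.76% and 5.86%) to 8. Between compounds 6 and 2 it was 0, and 14 without the set term, where 20% of all genes were higher and 22.6% lower. On leaving out arrays it was 0 to 3 (3 without vehicle F, 3.02% and 4.43%). With compound 9 it was 0 under every setting run. Except for the settings that leave out samples, the set term or shared groups, the cause was not tested.

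Psmg2 and Psmg4 kept their calls after withdrawal and with compound 6 in all 22 alternatives run for each. Psmg1 and Psmg3 after withdrawal, and Psma4 with compound 6, lost theirs only without the set term (-0.34, -0.43 and -0.03). Normexp with an offset shrinks the ratios of dim probes, such as that of Psmb8 (mean Cy3 signal 99.6). With compound 6 the lower counts came without vehicle D (6), E (5) or G (6) and without compound 6 F (6). In these fits 8.31% to 9.26% of all genes rose and 9.11% to 9.71% fell.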
